A study of Mus musculus with 9 samples.

Results

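Ttr, Folr1, Clic6, Kl, Calml4, Enpp2 and Sostdc1, 7 genes known as markers of the choroid plexus epithelium, were followed through RNA sequencing of mouse midbrain, as a check on what each dissected sample held. They were chosen by gene symbol, and all 7 had a row in the table of 21356 distinct symbols and passed the filter on low values, which left 14029 genes for the tests. Midbrain tissue had been dissected from C57BL/6 fetuses at E13.5, with 3 fetuses per genotype. The floxed control was Gpr161 f/f without Cre. The Cre control was Gpr161 f/+ with Wnt1-Cre, and the cKO was Gpr161 f/f with Wnt1-Cre, so every fetus carried at least 1 floxed allele and the Cre control differed from the floxed control both in the transgene and in 1 allele. The study reports Wnt1-Cre activity in the midbrain, the hindbrain and neural crest derivatives before this stage. Cells outside the Wnt1 lineage kept their Gpr161, and which cells of the dissected tissue these were was not tested. The whole-gene log2 value of Gpr161 was 11.74 to 11.80 in the floxed controls, 11.77 to 11.96 in the Cre controls and 11.74 to 11.95 in the libraries labelled cKO, so it was not lower there, and since 1 value per gene does not separate the deleted exons, it gives no check of the labels, by which the libraries are called.

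The choroid plexus is a fold of vascular stroma covered by a cuboidal epithelium that arises from the dorsal midline of the brain, beside the roof plate, in the ventricles of the forebrain and the hindbrain. It secretes cerebrospinal fluid, carries hormones and vitamins from blood to that fluid, and in the embryo bears many motile cilia. The midbrain itself forms no choroid plexus, and the nearest ones lie in the roof of the hindbrain and of the diencephalon. In whole tissue, fewer epithelial cells and less RNA per cell cannot be told apart.

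Of the 7 genes, 6 (all but Kl) varied more between fetuses of the same genotype than the median gene did, and the variation was led by Ttr and Clic6. Floxed control replicates 2 and 3 carried the highest levels, with Cre control replicate 2 behind them, while floxed control replicate 1, the other Cre controls and the 3 cKO libraries were lower. Against the floxed control the cKO mean was lower in 7 of 7 genes, but 1 of them passed the test, and against the Cre control 0 of 7 did. Values are given on the log2 scale of the deposited table, where a difference of 1 is a doubling, with the libraries of a genotype in the order of their replicate numbers.

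Ttr encodes transthyretin, the carrier of thyroid hormone and of retinol-binding protein that the choroid plexus secretes into the cerebrospinal fluid. Its log2 value was 11.13, 13.65 and 13.32 in the floxed controls, 10.51, 12.35 and 8.95 in the Cre controls, and 11.04, 9.67 and 10.46 in the cKO. The highest and the lowest library thus differed by 4.7 on the log2 scale, a 26.0-fold difference. Among the 14029 genes tested, Ttr ranked 211 by level in floxed control replicate 2 and 8971 in Cre control replicate 3. The cKO libraries all lay below the floxed controls (nearest values 11.04 and 11.13) and within the range of the Cre controls. The spread was widest among the Cre controls, with an SD of 1.7 (n = 3), against 1.4 in the floxed controls and 0.69 in the cKO.

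Folr1 encodes the folate receptor that takes up folate for transport across this epithelium. It stood at 6.91, 7.88 and 7.63 in the floxed controls, at 7.42, 7.45 and 7.27 in the Cre controls, and at 7.04, 7.34 and 7.27 in the cKO. Floxed control replicate 1 was the lowest of all 9 libraries and floxed control replicate 2 the highest, so the floxed controls enclosed both other genotypes. 

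Clic6, a member of the chloride intracellular channel family that is abundant in secretory epithelia such as the choroid plexus, followed Ttr closely. It was 7.84, 9.73 and 9.44 in the floxed controls, 7.52, 8.63 and 6.99 in the Cre controls, and 7.89, 7.42 and 7.61 in the cKO. The range was 2.74 on the log2 scale, or 6.7-fold. The order of the libraries was that of Ttr apart from the exchange of neighbours in 2 places, where cKO replicate 1 stood above floxed control replicate 1 and cKO replicate 3 above Cre control replicate 1.

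Enpp2 encodes autotaxin, a secreted enzyme that makes lysophosphatidic acid and that is also made outside the choroid plexus. Its values were 10.63, 11.17 and 11.01 in the floxed controls, 10.36, 10.80 and 10.58 in the Cre controls, and 10.61, 10.62 and 10.66 in the cKO. Floxed control replicates 2 and 3 were again the highest, with Cre control replicate 2 next, over a range of 0.80 on the log2 scale. The cKO libraries lay within 0.05 of each other.

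Sostdc1 encodes a secreted antagonist of BMP and Wnt signals. It measured 6.98, 7.80 and 7.56 in the floxed controls, 6.91, 7.54 and 6.97 in the Cre controls, and 7.47, 7.37 and 7.35 in the cKO. Here the cKO lay above floxed control replicate 1 and above Cre control replicates 1 and 3, and below the same 3 control libraries that were high in Ttr.

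Calml4, a calmodulin-like protein found in brush borders and ciliated epithelia, had 6.60, 7.14 and 7.08 in the floxed controls, 6.84, 6.76 and 6.66 in the Cre controls, and 6.63, 6.62 and 6.53 in the cKO. All 3 cKO values lay below the Cre controls (nearest values 6.63 and 6.66), and 1 floxed control lay among the cKO values. Kl encodes klotho, the co-receptor for Fgf23 that mature choroid plexus expresses strongly. It held between 6.12 and 6.36 in all 9 libraries, with 6.31, 6.21 and 6.21 in the floxed controls, 6.36, 6.25 and 6.27 in the Cre controls, and 6.25, 6.13 and 6.12 in the cKO. Kl did not share the pattern of the other 6 genes: its highest library was Cre control replicate 1, in which Enpp2 and Sostdc1 were at their lowest. Kl was also the lowest of the 7 by level, at rank 12605 to 12827 among the genes tested, and low values are compressed toward the mean in these data.

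**Figure D1:**
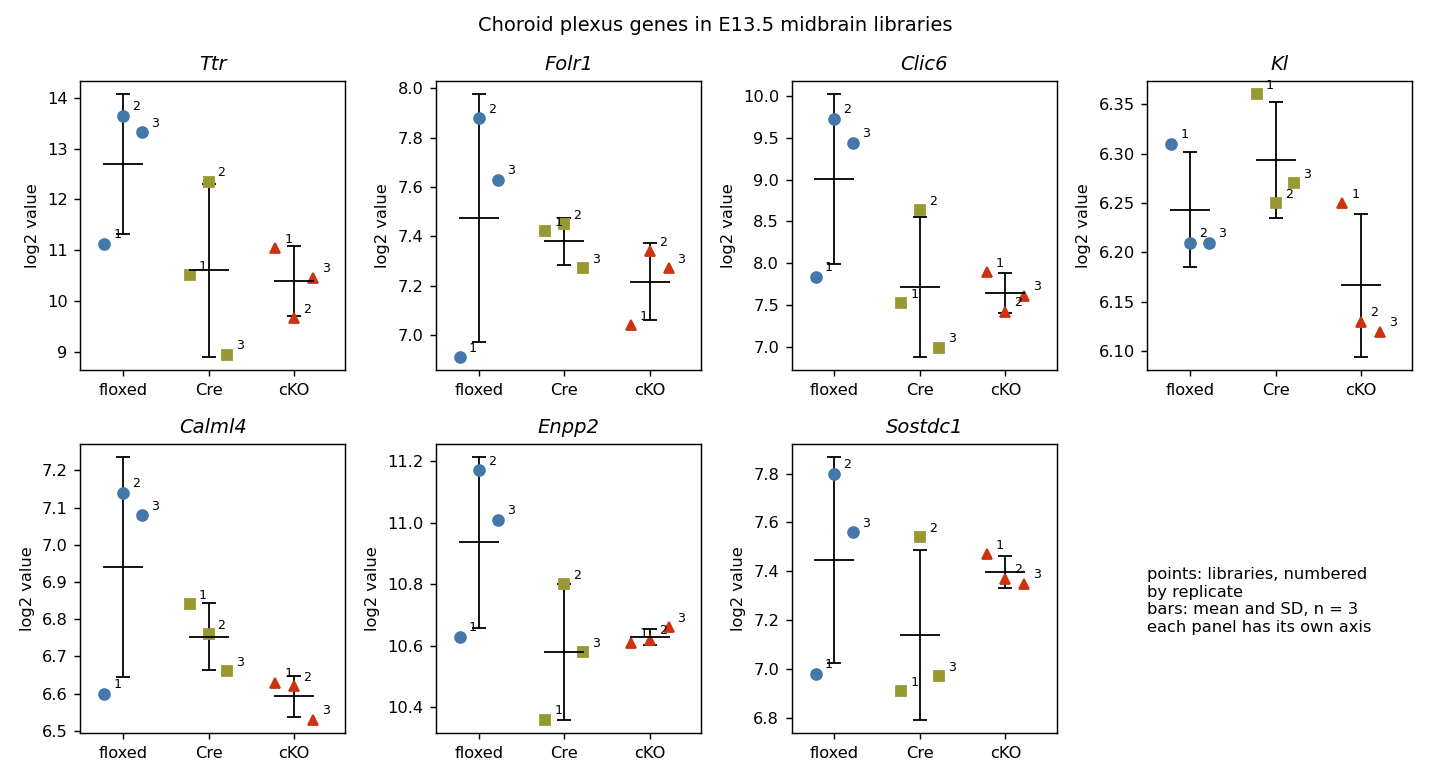
Log2 value of each choroid plexus gene (vertical axis, a separate scale per panel) in the floxed control, Cre control and cKO. Points are libraries numbered by replicate, and the bars give the mean and SD (n = 3). Floxed control replicates 2 and 3 were the 2 highest libraries in 6 of the 7 genes, Kl being the exception.

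Levels of different genes were compared per kilobase of the principal transcript in the GENCODE annotation of mouse GRCm38. On this log2 level per kilobase, averaged over the 9 libraries, Ttr came first at 10.99 and Enpp2 next at 9.08, with Ttr in its lowest library (8.71) below every value of Enpp2 (8.73 to 9.54). Calml4 (6.97), Folr1 (6.96), Sostdc1 (6.5) and Clic6 (6.21) formed a middle group whose ranges over the libraries overlapped, so that their order did not hold in each library. Kl was the lowest at 3.88, and its highest library (4.01) stayed below the lowest library of every other gene. Since Ttr spanned 8.71 to 13.41, its place above Enpp2 held beyond the spread in the floxed controls (means 12.46 and 9.3) but not in every library.

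The genes lie on separate chromosomes. In GRCm38 they are Kl at chr5:150952607-150993817 (plus strand), Folr1 at chr7:101858331-101870788 (minus), Calml4 at chr9:62858080-62875921 (plus), Sostdc1 at chr12:36314139-36318452 (plus), Enpp2 at chr15:54838901-54952892 (minus) and Clic6 at chr16:92485736-92541243 (plus), with Ttr on chromosome 18. The gene nearest in pattern to their mean, Kcne2, shares chromosome 16 with Clic6 at a distance of 187607 bases, and the others share no neighbourhood.

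The spread within a genotype was compared with that of all genes tested, as the SD around the 3 genotype means. The median of this SD over the 14029 genes was 0.074. Ttr had the largest of all, 1.32, and Clic6 ranked 7 with 0.774. Sostdc1 (0.318, rank 104) and Folr1 (0.311, rank 115) also fell among the most variable 1% of genes. Enpp2 (0.205) and Calml4 (0.181) had 2.99% and 4.66% of genes above them. Kl, at 0.0634, was the only one of the 7 below the median. Of the 10 most variable genes, 3 were of the choroid plexus, Ttr, Clic6 and the potassium channel subunit Kcne2 (0.79, rank 6), and 4 were Y-linked (Kdm5d, Eif2s3y, Ddx3y and Uty). The summed linear level of these Y-linked genes was lowest in floxed control replicate 2 (918) and Cre control replicate 1 (1075) and between 2501 and 4202 in the other libraries, so the libraries with little Y-linked RNA included the highest in Ttr and one of the lower ones.

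Read by library, floxed control replicates 2 and 3 and Cre control replicate 2 each lay above their own genotype mean in 6 of 7 genes. Floxed control replicate 1 and Cre control replicate 3 each lay below it in 6 of 7. The cKO libraries did not separate in this way, with 5, 2 and 3 genes above the genotype mean in replicates 1, 2 and 3. Summed on the linear scale, the 7 genes reached 4479, 16707 and 13603 in the floxed controls, 3443, 7930 and 2614 in the Cre controls, and 4387, 3055 and 3700 in the cKO. Ttr made up most of the difference, since the 6 genes without it spanned 1987 to 3822, a 1.92-fold range against 6.39-fold with it.

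Clic6 was the gene of the 7 that followed Ttr most tightly across the 9 libraries (Pearson r = 0.982, exact permutation p = 1.1e-05, adjusted over 14028 genes 0.0309). The Spearman rho was 0.967 (exact permutation p = 0.000165, adjusted 0.258), so the rank measure alone did not pass the adjustment. Without floxed control replicates 2 and 3, the libraries farthest from the median of Ttr, r stayed at 0.976, and it was 0.965 after the genotype means were removed. Per unit of Ttr on the log2 scale, Clic6 moved by 0.582.

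The other genes followed less closely. The r with Ttr was 0.834 for Enpp2 (exact permutation p = 0.00491), 0.797 for Calml4 (p = 0.0117), 0.732 for Sostdc1 (p = 0.0269) and 0.616 for Folr1 (p = 0.0755), each with an adjusted p of 0.655. Their Spearman rho was 0.767 (exact permutation p = 0.0214), 0.6 (p = 0.0968), 0.75 (p = 0.0255) and 0.567 (p = 0.121), each with an adjusted p of 0.5. Without the 2 libraries farthest from the median of Ttr, r dropped to 0.459, 0.256, 0.472 and -0.042, so these relations rested largely on floxed control replicates 2 and 3. With all 9 libraries kept and the genotype means removed, r was 0.706, 0.677, 0.873 and 0.602. The slopes of the 4 genes on Ttr lay between 0.109 and 0.142. Kl had r = -0.03 (exact permutation p = 0.938, adjusted 0.978) and rho = -0.05 (p = 0.912, adjusted 0.958). Its r was 0.196 without floxed control replicates 2 and 3, and -0.256 after the genotype means were removed.

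**Figure D2:**
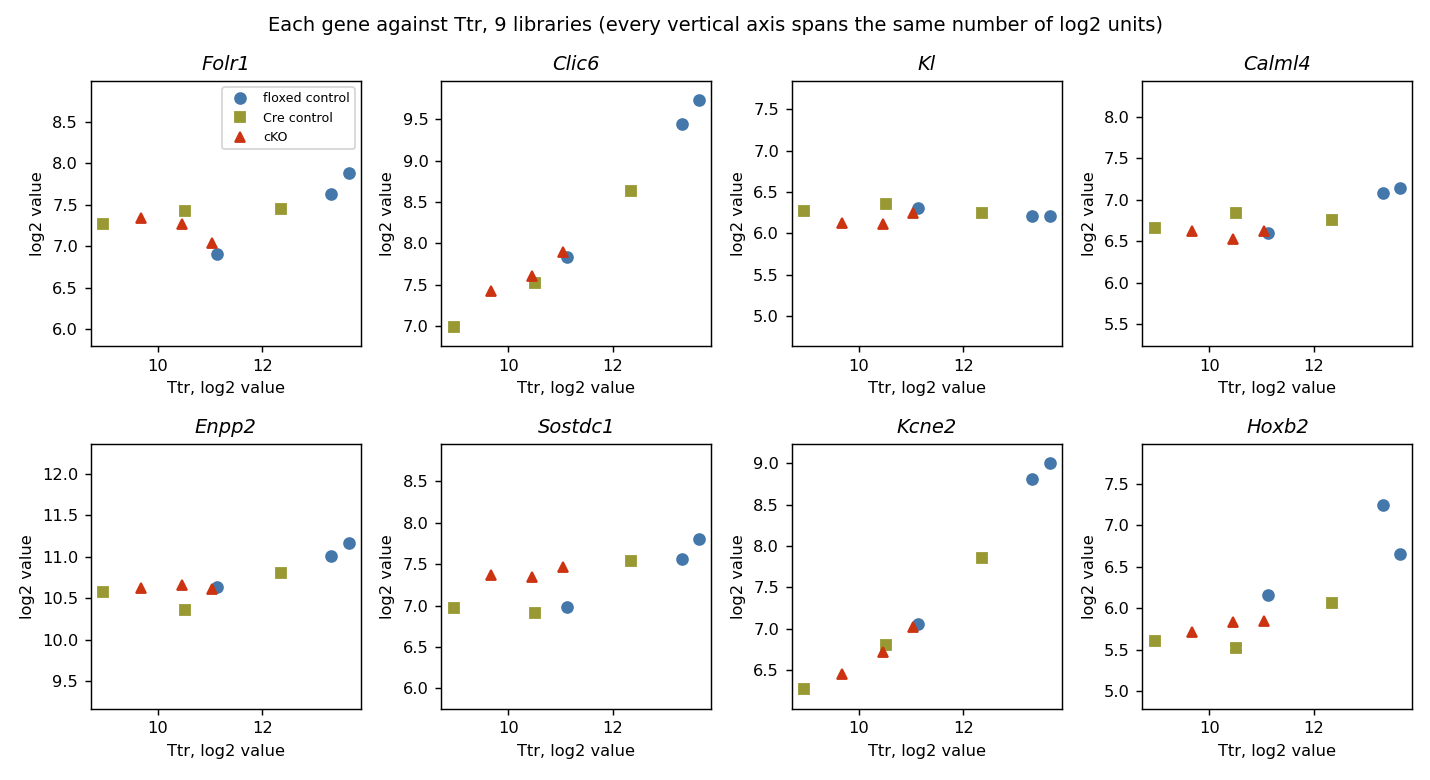
Log2 value of each of the other 6 choroid plexus genes, of Kcne2 and of the hindbrain gene Hoxb2 (vertical axes, all spanning the same number of log2 units) against the log2 value of Ttr (horizontal axis) in the 9 libraries, with a symbol per genotype. Clic6 and Kcne2 rise along a line through all 3 genotypes (r = 0.982 and 0.98), while Kl is flat (r = -0.03).

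The mean of the 7, each centred but not scaled, was led by Ttr and Clic6 (r with it 0.98 and 1.0). For Enpp2, Calml4, Sostdc1 and Folr1 this r was 0.9, 0.86, 0.79 and 0.74, and for Kl it was -0.12. The genes nearest in pattern to this mean were sought among 238 other genes that ranged over at least 1 log2 unit. The first 5 were Kcne2 (r = 0.994), the inward rectifier Kcnj13 (0.979), the axonemal dynein Dnah6 (0.962), the carbonic anhydrase Car12 (0.961) and the serotonin receptor Htr2c (0.953), over 9 libraries. After the genotype means were removed they were Kcne2 (0.997), the cation channel Trpm3 (0.972), Plppr4 (0.971), Kcnj13 (0.968) and Dnah6 (0.95). All but Dnah6 and Plppr4 belong to the list of other choroid plexus genes, which held 9 of the 238 candidates. Kcne2 was 7.06, 9.0 and 8.81 in the floxed controls, 6.81, 7.86 and 6.27 in the Cre controls, and 7.02, 6.45 and 6.72 in the cKO, and it ordered the 9 libraries exactly as Ttr did (rho = 1.0, exact permutation p = 5.51e-06, adjusted 0.0387). Its r with Ttr was 0.98 (exact permutation p = 2.76e-06, the smallest the 9 libraries can give, adjusted 0.0193), and 0.978 without floxed control replicates 2 and 3. Over all genes tested, 31 of 14028 (0.221%) had an r with Ttr of at least 0.9.

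The cKO differs from the floxed control both in the Wnt1-Cre transgene and in the loss of Gpr161 in the Wnt1 lineage, and this comparison does not separate them. Calml4 passed the test at 6.59 ± 0.053 in the cKO against 6.94 ± 0.30 in the floxed control (SD, n = 3), a log2 fold change of -0.35 (95% confidence interval -0.62 to -0.08, limma adjusted p = 0.0453). This is 0.784-fold, short of the 1.5-fold limit that the study set for a differentially expressed gene. Ttr fell just outside the test, with means of 10.39 ± 0.69 and 12.70 ± 1.4, a log2 fold change of -2.32 (-4.17 to -0.46) and an adjusted p of 0.05033. Clic6 did too, with 7.64 ± 0.24 against 9.0 ± 1.0, a log2 fold change of -1.36 (-2.46 to -0.27) and an adjusted p of 0.05004. Both are large differences with a large error, since the floxed controls themselves spanned 2.52 (Ttr) and 1.9 (Clic6) on the log2 scale.

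For Enpp2 the log2 fold change was -0.30 (-0.60 to -0.01, adjusted p = 0.0973), and for Folr1 it was -0.25 (-0.70 to 0.20, adjusted p = 0.347). Kl had -0.077 (-0.21 to 0.06, adjusted p = 0.331) and Sostdc1 -0.046 (-0.50 to 0.41, adjusted p = 0.879). In all, 1 of 7 genes passed, where 38.3% of all genes tested did, and 0 of 7 passed together with the 1.5-fold limit, where 2.92% did. An unadjusted limma p under 0.05 was found in 4 of 7, and in at least the 38.3% of all genes that passed. The values of the genotypes did not overlap in 1 of 7 genes, Ttr, where 57.1% of all genes did not overlap. The median log2 fold change of the 7 was -0.30, against 0.011 over all genes.

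Which genes passed turned on single libraries. Without floxed control replicate 1, 5 of 7 passed (Ttr, Clic6, Calml4, Enpp2 and Folr1), and Ttr stood at -3.10 (adjusted p = 0.0203) and Clic6 at -1.95 (0.00819). Without floxed control replicate 2, 0 passed and Ttr stood at -1.84 (0.148). Without floxed control replicate 3, or without any 1 of the cKO libraries, 0 passed as well. The direction held for Ttr, Clic6, Calml4, Enpp2, Folr1 and Kl in each of these, while Sostdc1 changed sign without floxed control replicate 2 (0.13) or 3 (0.012) and stayed below 0 in the others.

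**Figure D3:**
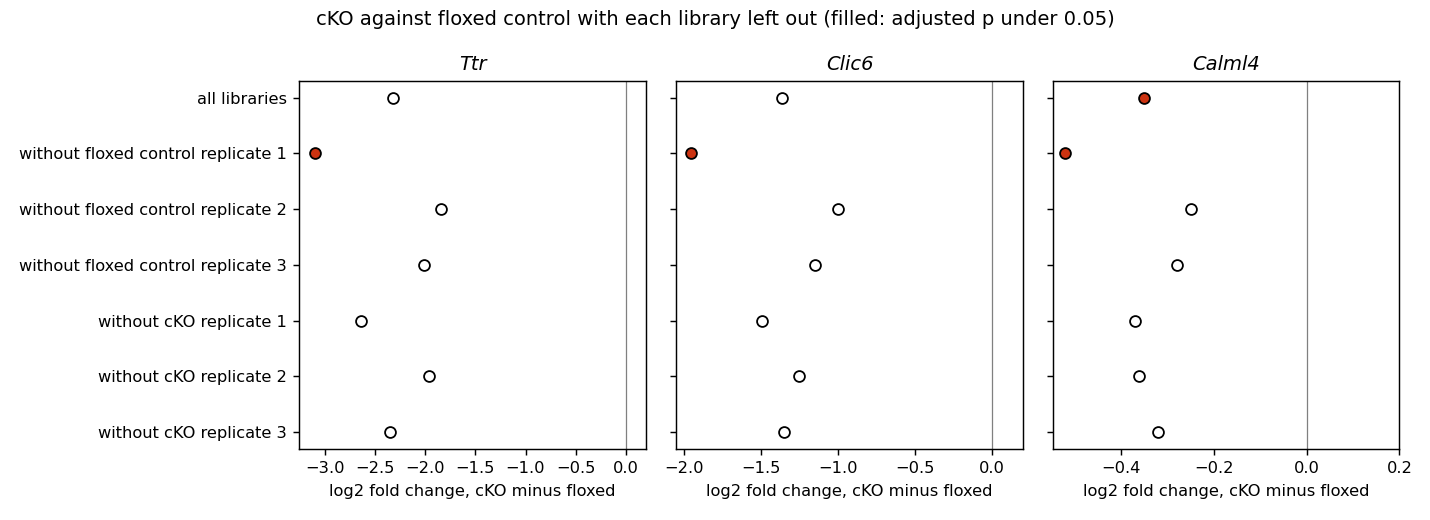
Log2 fold change of Ttr, Clic6 and Calml4, cKO minus floxed control (horizontal axes, a separate scale per panel), with all libraries and with each library of these genotypes left out in turn (rows). Filled points have an adjusted p under 0.05. The estimates stay below 0, and leaving out floxed control replicate 1 gives the lowest value in each gene (-3.10, -1.95 and -0.52).

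The comparison of the cKO with the Cre control sets the transgene equal and differs in 1 Gpr161 allele. Here limma called 0 of 7 genes, against 9.72% of all genes past the adjusted test and 0.563% past it with the 1.5-fold limit. An unadjusted limma p under 0.05 was found in 0 of 7. Ttr had 10.39 ± 0.69 in the cKO and 10.60 ± 1.7 in the Cre control, a log2 fold change of -0.21 with an interval of -2.07 to 1.64 (adjusted p = 0.887), so a change of this transcript by several fold in either direction was not excluded. Clic6 had -0.073 (-1.16 to 1.02, adjusted p = 0.938). The intervals were narrower for Calml4, -0.16 (-0.43 to 0.11, adjusted p = 0.407), and for Kl, -0.13 (-0.26 to 0.01, adjusted p = 0.185). Folr1 had -0.16 (-0.61 to 0.28), Enpp2 0.049 (-0.25 to 0.35) and Sostdc1 0.26 (-0.20 to 0.71), with adjusted p of 0.62, 0.832 and 0.437. Values did not overlap in 1 of 7 genes, Calml4, where 31.5% of all genes did not overlap. Without Cre control replicate 2, the log2 fold change of Ttr turned to 0.66 and that of Clic6 to 0.39, and without cKO replicate 2 they were 0.15 and 0.037.

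Neither the Cre control nor the floxed control has Gpr161 deleted on both alleles. For Ttr the Cre control mean, 10.60 ± 1.7, lay below that of the floxed control by a log2 fold change of -2.1 (-3.96 to -0.25, adjusted p = 0.243) and for Clic6 by -1.29 (-2.38 to -0.20, adjusted p = 0.232). The cKO comparison, which shares these floxed controls, gave -2.32 and -1.36. Enpp2 had -0.35 (-0.65 to -0.06, adjusted p = 0.232), Sostdc1 -0.30 (-0.76 to 0.16, adjusted p = 0.459), Calml4 -0.19 (-0.46 to 0.08, adjusted p = 0.436), Folr1 -0.088 (-0.54 to 0.36, adjusted p = 0.838) and Kl 0.051 (-0.08 to 0.18, adjusted p = 0.67). By limma 0 of 7 passed the adjusted test, where 0.057% of all genes did, or 0.0285% with the 1.5-fold limit. An unadjusted limma p under 0.05 was found in 3 of 7 (Ttr, Clic6 and Enpp2), and no share over all genes was counted at that limit.

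**Figure D4:**
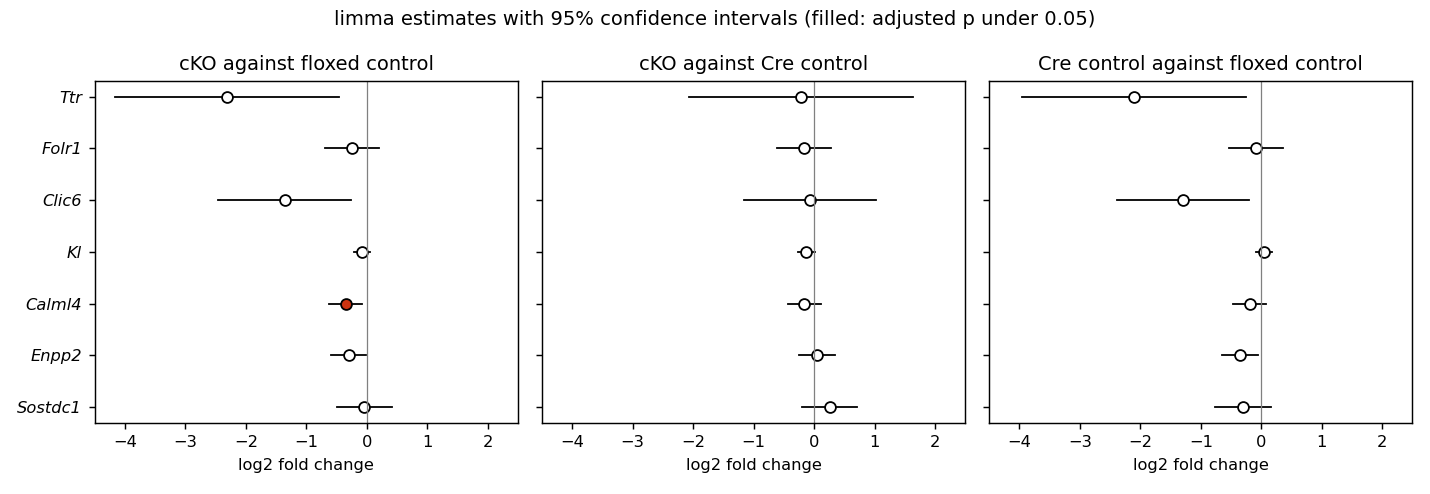
Log2 fold change (horizontal axis) of the 7 choroid plexus genes in the 3 comparisons, as the limma estimate with its 95% confidence interval. The filled point has an adjusted p under 0.05. Only Calml4 in cKO against floxed control is filled, and the intervals of Ttr and Clic6 are the widest in every panel.

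A wider list of 26 choroid plexus epithelium genes, of which 25 were in the table and 20 were tested, was set beside the 7. In cKO against floxed control 7 were lower and 4 higher past the test, where 18.8% of all genes were lower and 19.5% higher, with a median log2 fold change of -0.22. Those lower were Kcne2 (-1.56), Htr2c (-1.15), Trpm3 (-1.05), Car12 (-0.77), Kcnj13 (-0.70), the sulfate transporter Slc13a4 (-0.29) and Tmem72 (-0.24). Those higher were the collagen Col8a1 (0.86), the keratin Krt8 (0.64), Wfdc2 (0.31) and the tight junction claudin Cldn3 (0.29). Over the 20 genes, r with Ttr had a median of 0.68 (-0.47 to 0.98), and after the genotype means were removed a median of 0.75 (0.33 to 0.96). After that removal the median was also above 0 for erythroid (0.56, 8 of 8 genes above 0), endothelial (0.47, 7 of 7) and microglial markers (0.33, 6 of 6). It was below 0 for midbrain (-0.25) and telencephalon markers (-0.11). A median over all genes was taken only on the values as they are (-0.03). In cKO against Cre control Cldn3 was higher (0.27) and Tmem72 lower (-0.16), where 9.72% of all genes passed, and 0 of 20 passed without the filter, with the 2 genotypes alone, or without floxed control replicate 3, Cre control replicate 3, cKO replicate 1 or cKO replicate 3. In Cre control against floxed control limma called 0 of 20, with 7 at an unadjusted p under 0.05. The count of 11 in cKO against floxed control ran from 4, without the filter on low values or without floxed control replicate 3, to 14, without floxed control replicate 1, over the alternatives.

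Choroid plexus epithelium is multiciliated, and 13 genes of motile cilia and their assembly were listed, of which 10 were tested. In cKO against floxed control 5 were lower past the test and 0 higher, where 18.8% of all genes were lower and 19.5% higher, with a median of -0.31. They were the regulator of multiciliated fate Gmnc (-0.48), the deuterosome gene Deup1 (-0.31), the axonemal genes Ccdc39 (-0.44) and Rsph4a (-0.52), and Dynlrb2 (-0.31). Of these, Gmnc, Deup1 and Dynlrb2 lay near the filter, which stood at a log2 value of 4.73 to 4.78. In the cKO they had 4.76, 4.62 and 4.57, 4.81, 4.66 and 4.75, and 4.69, 4.65 and 4.69. In floxed control replicates 2 and 3 they had 5.39 and 5.34, 5.18 and 5.14, and 5.23 and 4.98. Genes this low can pass the filter through those libraries, so it can favour genes lower in the cKO. Against the Cre control limma called 0 of 10 (0 at an unadjusted p under 0.05), and between the controls 0 of 10 (9 at an unadjusted p under 0.05). The 9 have no share of all genes at that limit beside them. The r of these genes with Ttr had a median of 0.87, and of 0.77 after the genotype means were removed. Rsph4a was closest in rank (r = 0.943, exact permutation p = 8.27e-06, adjusted 0.029, and rho = 0.983, p = 4.96e-05, adjusted 0.174, with r = 0.86 without floxed control replicates 2 and 3), at 5.67, 6.17 and 5.98 in the floxed controls, 5.40, 5.69 and 5.36 in the Cre controls, and 5.55, 5.35 and 5.37 in the cKO. The count of 5 ran from 2, without the filter on low values or without floxed control replicate 2 or 3 or cKO replicate 2, to 8, without floxed control replicate 1.

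**Figure D5:**
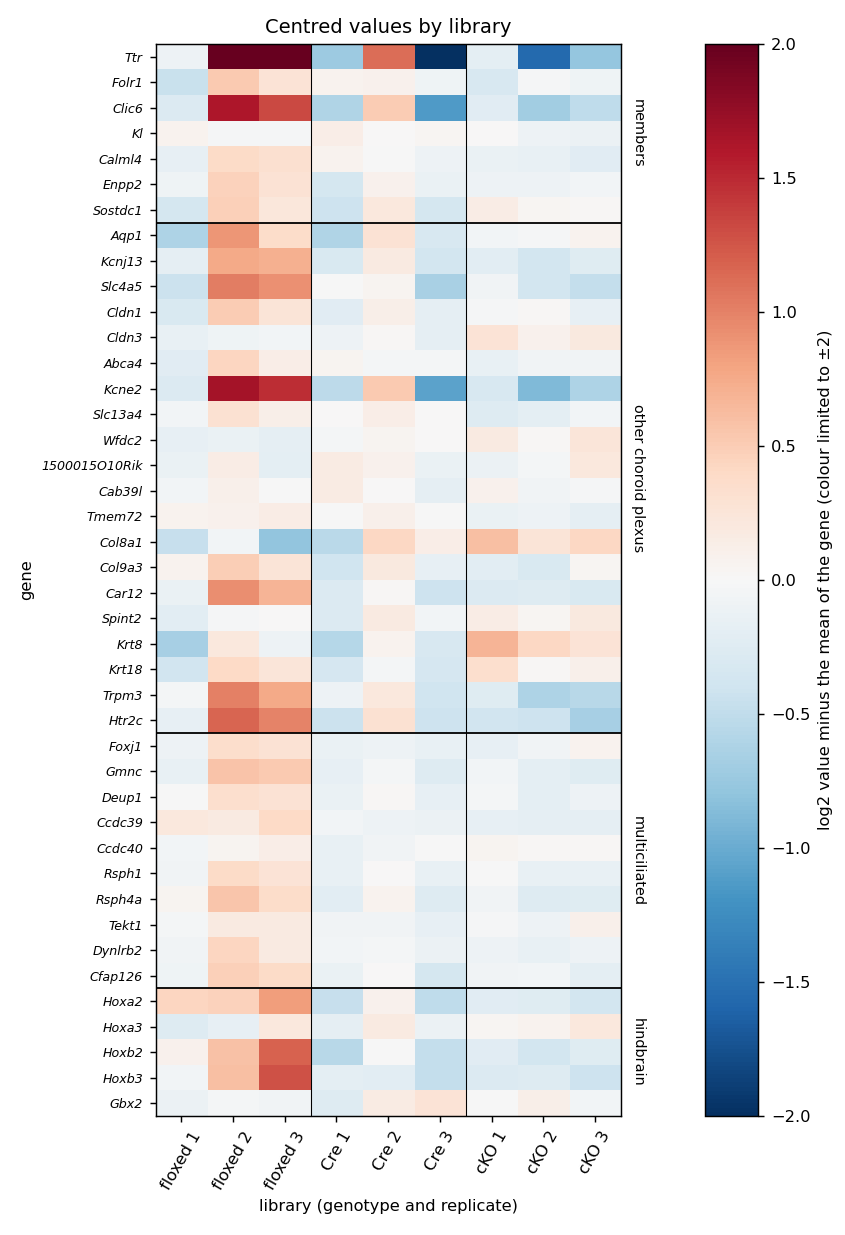
Log2 value minus the mean of the gene over the 9 libraries (colour, limited to ±2) for the genes tested (rows) among the 7 choroid plexus genes, the other choroid plexus genes, the multiciliated cell genes and the hindbrain markers, by library (columns). Floxed control replicates 2 and 3 are red in most rows of the first 3 blocks, with Kl, Wfdc2, Col8a1 and Cldn3 among the exceptions, and Hoxa2, Hoxb2 and Hoxb3 are highest in floxed control replicate 3.

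Markers of tissue that borders the midbrain were compared in the same libraries. For these and the other cell types below, counts stand beside 18.8% of all genes lower and 19.5% higher in cKO against floxed control. Against the Cre control 9.72% of all genes passed, and between the controls 0.057%. Of 10 hindbrain markers 5 were tested, and Hoxa2 (-0.85), Hoxb2 (-0.89) and Hoxb3 (-0.93) were lower in the cKO against the floxed control (median of the 5, -0.85). The count of 3 was 1 without the filter on low values, 2 without cKO replicate 3 and 4 without floxed control replicate 3. Hoxb2 was 6.16, 6.65 and 7.25 in the floxed controls, 5.52, 6.06 and 5.60 in the Cre controls, and 5.85, 5.71 and 5.83 in the cKO. Its r with Ttr was 0.86 (exact permutation p = 0.00162, adjusted 0.429) and its rho 0.867 (p = 0.00451, adjusted 0.5), with r = 0.727 without floxed control replicates 2 and 3. This was the highest r of the 5, whose median was 0.81. Hoxa3 and Gbx2, also tested, had r = 0.153 and -0.294. Their means were higher in the cKO than in the floxed control (5.15 against 4.97, and 7.98 against 7.89), without passing the test. The summed linear level of the list ran from 517 to 719 in the floxed controls, 432 to 542 in the Cre controls and 471 to 501 in the cKO, with Egr2, Hoxb1, Hoxb4, Hoxa4 and Hoxd3 below the filter. The part of hindbrain tissue in the levels of the choroid plexus genes was not tested.

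Roof plate genes, which mark the dorsal midline from which the plexus arises, had a median r with Ttr of 0.13 over 11 genes, and of 0.63 after the genotype means were removed, when 9 of 11 were above 0. Of them Msx2 (0.52), Bmp4 (0.48), Msx1 (0.41) and Bmp7 (0.34) were higher in the cKO than in the floxed control and 0 were lower (median 0.11). The 11 markers of meninges and head mesenchyme, which include the collagens of the stroma, summed to between 29805 and 53554 in the floxed controls, 37772 and 61708 in the Cre controls and 62650 and 65228 in the cKO. In cKO against floxed control 6 of 11 were higher past the test (Twist1 0.79, Col3a1 0.77, Lum 0.72, Col1a2 0.69, Dcn 0.49 and Foxc1 0.45, median 0.49), and their median r with Ttr was -0.29, or 0.41 after the genotype means were removed, when 11 of 11 were above 0. Erythroid markers summed to between 151655 and 257704 in the floxed controls, 182514 and 209983 in the Cre controls and 236712 and 457951 in the cKO, with 6 of 8 higher in the cKO than in the floxed control (median 0.78). The part of either cell type in the levels of the choroid plexus genes was not tested.

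The 10 midbrain markers summed to between 16212 and 19307 in all 9 libraries. Whether these genes mark midbrain alone, and how much of each library was midbrain, was not tested. Their median r with Ttr was -0.1 (-0.25 after the genotype means were removed). Of the 10, 3 (Pou4f1 -0.60, Pax7 -0.48 and Th -0.47) were lower in the cKO than in the floxed control. Of 9 telencephalon markers 7 were tested, and 1, Neurod6 (-0.91), was lower. The forebrain gene Dlx1 stood apart in 2 Cre controls, at 6.69 in replicate 2 and 7.75 in replicate 3, the library lowest in Ttr, against 5.26 to 5.76 in the other libraries. Dlx2 (5.81) and Dlx5 (5.04) were also at their highest in Cre control replicate 3. None of the 3 passed the test in any comparison, and the part of such tissue in the levels of the choroid plexus genes was not tested. Visceral endoderm and liver, which also make much Ttr, left almost no trace: 0 of 8 of their markers passed the filter and their summed level was between 72 and 78. Of 8 pigment epithelium markers 4 were tested and Rlbp1 was lower (-0.56). Endothelial markers were higher in 4 of 7 (Emcn, Tek, Tie1 and Pecam1), with a median of 0.25, and microglial markers in 0 of 6 (2 at an unadjusted p under 0.05, median 0.11). Against the Cre control, Pou4f1 (-0.61), Th (-0.45) and Rlbp1 (-0.20) were lower and 3 of 8 erythroid markers were higher, while limma called 0 of the hindbrain, telencephalon, roof plate, meningeal, endothelial and microglial markers (0, 1, 3, 3, 1 and 0 at an unadjusted p under 0.05). Between the controls it called 0 in all 9 of these lists (between 0 and 5 at an unadjusted p under 0.05).

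The partners of the 7 genes were followed as fixed lists, whose counts stand beside 19.5% of all genes higher and 18.8% lower in cKO against floxed control and 9.72% past the test against the Cre control. Among 12 genes of thyroid hormone and retinol handling, around Ttr, 9 were tested. In cKO against floxed control the transporters Slc16a10 (-0.68) and Slco1c1 (-0.65) and the receptor Thra (-0.43) were lower, and the activating deiodinase Dio2 (0.60) and the binding protein Crym (0.51) were higher, with a median of -0.10. Slc16a10 and Slco1c1 stood high in the libraries that were high in Ttr, with 8.87 and 8.86 in floxed control replicate 2 against 7.90 and 7.80 in floxed control replicate 1. Dio2 was also higher against the Cre control (0.62).

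Around Folr1, 10 of 18 genes of folate uptake and one-carbon metabolism were higher in the cKO than in the floxed control and 1 was lower (median 0.20), where 19.5% and 18.8% of all genes were. Among those that rose were Tyms (0.48) and Mthfd1l (0.44), enzymes of thymidylate and mitochondrial formate synthesis, and Aldh1l2 fell (-0.47). Against the Cre control 3 were higher (Mthfd1l 0.40, Mthfd1 0.20 and Shmt2 0.17) and Aldh1l2 was lower (-0.33). Folr1 itself passed in neither comparison.

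Around Enpp2, 7 of 9 lysophosphatidic acid receptors and phosphatases were tested, and Lpar1 (0.48), Lpar6 (0.31) and Plpp3 (0.23) were higher in the cKO than in the floxed control (median 0.16), and 0 of 7 against the Cre control (2 at an unadjusted p under 0.05). Around Kl, 5 of 9 klotho-family, endocrine Fgf and Fgf receptor genes were tested, and Fgf15 (1.02) and Fgfr3 (0.24) were higher (median 0.074), also against the Cre control (1.01 and 0.29). Around Sostdc1, 3 of 15 secreted BMP and Wnt antagonists and Lrp co-receptors were higher, Fst (0.70), Lrp5 (0.34) and Dkk1 (0.31), with a median of 0.045, and against the Cre control Fst was higher (0.43) and Lrp4 lower (-0.38). In the Clic family Clic1 (0.33), Clic5 (0.25) and Clic4 (0.21) were higher in cKO against floxed control (median 0.23), opposite in sign to the value of Clic6 (-1.36). Among the calmodulins, Calm3 (-0.21) and Calm2 (-0.20) were lower (median of 3 tested, -0.20), as was Calml4. In neither family did limma call a gene against the Cre control (3 and 2 at an unadjusted p under 0.05). In Cre control against floxed control, limma called 0 genes in each of these 7 lists, with between 0 and 5 at an unadjusted p under 0.05 per list.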

How the data were processed

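Poly-A selected RNA of 9 midbrain samples was sequenced by the authors, taken here as 1 fetus each, since no pooling is named. They deposited 1 table of log2 values between -2.12 and 17.95, which were scaled between libraries and compressed toward the mean where expression was low, so fold changes of weakly expressed genes are compressed. The transformation is not named. The submitters' processing notes list FastQC 0.10.1, kallisto 0.46.1, DESeq2 and mm10, without their roles. The table holds no counts, so depth is unknown and no interval from counts was given. Of 27360 rows, 5764 carry no gene name. A named gene was tested if it reached 1 cpm (on linear values) in 3 libraries or more, and a repeated symbol was represented by its row of highest mean.

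A mean per genotype was fitted to all 9 libraries with limma 3.58.1 in R 4.3.3 (eBayes with a trend, two-sided), with Benjamini-Hochberg adjustment over 14029 genes. A gene passed at an adjusted p under 0.05. Counts at an unadjusted p under 0.05 have no share over all genes beside them, and that share is at least the share that passed. It can be far larger, so these counts are not to be read against the shares past the adjusted test. The fit was tested on simulated data. Litters and batches are not given in the labels, so p-values measure the spread between these samples. Correlations over libraries were tested two-sided over all 362880 orders. The members and lists were chosen with earlier results of these data known. All 7 members are named. Of other lists, the genes past the test are named, or their counts given (some genes are not reported here), and the 5 nearest patterns were taken among genes with a range of at least 1. The genes Hoxb2, Dlx1, Dlx2, Dlx5, Egr2, Hoxb4, Hoxa4 and the Y-linked genes were picked after their values were seen. Alternatives were no filter, 2 genotypes alone, a replicate block, no trend, median centring, quantile normalization and omission of each library.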

Additional observations from a re-analysis of the deposited data

How the results depend on the processing

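In cKO against floxed control, 1 of 7 choroid plexus genes passed the test. The count was 0 without the filter on low values, 2 with the replicate block (Clic6 and Enpp2) and 2 with the 2 genotypes alone (Ttr and Clic6), and 3 with libraries centred on medians or with quantile normalization (Ttr, Clic6 and Calml4 in each). With 1 library left out it ran from 0 to 5, where omission of Cre control replicate 2 or 3, which leaves the fold changes unchanged, gave 2 (Ttr and Clic6). The adjusted p ran from 0.0168 to 0.15 for Ttr, from 0.00819 to 0.158 for Clic6 and from 0.00253 to 0.153 for Calml4. In the other comparisons 0 of 7 passed under every alternative. Of the fold changes of single genes under an alternative, 281 kept their direction and side of the threshold, 16 newly passed, 10 no longer passed and 8 changed sign. The sign changes were Sostdc1 in cKO against floxed control without floxed control replicate 2 (0.13) or 3 (0.012), Enpp2 in cKO against Cre control without Cre control replicate 1 (-0.06), Ttr (0.66) and Clic6 (0.39) there without Cre control replicate 2 and (0.15 and 0.037) without cKO replicate 2, and Folr1 between the controls without floxed control replicate 2 (0.12). With 1 library left out these values ran from -0.28 to 0.13 (Sostdc1), -0.06 to 0.16 (Enpp2), -1.04 to 0.66 (Ttr), -0.43 to 0.39 (Clic6) and -0.37 to 0.12 (Folr1). The cause was not tested.

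Libraries that share a replicate number correlated between -0.027 and 0.26 after removal of the genotype means, and others between -0.282 and 0.161, so the numbers were not taken as pairs. The table gives no depth, and 3 fetuses per genotype limit the precision.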
